A study of Homo sapiens with 2 samples.

Results

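The genes described here encode the DNA replication machinery of human cells: 47 of the 19736 genes that had a probe with a RefSeq accession on the arrays. These 47 were chosen by name from general knowledge of the process, with earlier results of these data known. They were found through the RefSeq accession given for each probe, and all 47 had at least 1 probe, with 60 probes in total. RNA came from RWPE-1, a noncancerous human prostate epithelial cell line, which had received either pre-miR-424, a precursor molecule that yields the microRNA miR-424, or Negative control #1, each at 30 nM. The 2 RNAs were labelled with Cy5 and Cy3 and hybridised together on an Agilent 2-colour array, and then again on a second array with the dyes exchanged. With normal labelling, Cy5 marked the pre-miR-424 sample and Cy3 its control, and on the dye swap the reverse. The design text calls the arrays technical replicates of each other, so they counted as 1 replicate of the transfection. Their agreement covers labelling and hybridisation error only, and no p-value was computed. All measurements come from 1 cell line under 1 dose, and the time between transfection and harvest is not given in the sources used here. A lower signal in such a bulk sample cannot tell fewer replicating cells apart from less RNA per cell.

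DNA replication is set up in G1, when the origin recognition complex, CDC6 and CDT1 load the MCM helicase onto origins. This step is called licensing, and geminin (GMNN) blocks it again after S phase begins. The DBF4-CDC7 kinase, together with cyclin E and CDK2, then fires the origins by recruiting CDC45 and the GINS complex to the MCM ring. At the fork, primase and polymerase alpha lay down primers, and polymerases delta and epsilon copy the strands with the PCNA clamp. FEN1 and LIG1 join the Okazaki fragments, RPA covers single strands, and RRM1, RRM2, TYMS and TK1 supply nucleotides. Many of these genes are known targets of E2F transcription factors, and their transcripts are abundant in proliferating cells. RWPE-1 cells were immortalised with a human papillomavirus, and the viral E7 protein is known to bind and inactivate the retinoblastoma proteins that restrain E2F.

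miR-424 belongs to a family of microRNAs known to lower G1 cyclins and their kinases. The mature sequences, from RefSeq (build GRCh38.p14), are shown because the seed, in capitals, largely decides which transcripts a microRNA can pair with. It covers bases 2 to 8, and it is AGCAGCA in 7 of the 2370 mature microRNA names of the table, of which 3 are given:
hsa-miR-424-5p: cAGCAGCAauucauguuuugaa
hsa-miR-16-5p: uAGCAGCAcguaaauauuggcg
hsa-miR-15a-5p: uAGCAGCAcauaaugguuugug
The 3 microRNAs have the same seed and differ after it. The mature miR-424-5p lies at chrX:134546680-134546701 on the minus strand. Matches to the seed in the transcripts of the replication genes were not analysed here.

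The signals of the arrays allowed nearly the whole machinery to be measured. All 60 probes of the 47 genes carried the scanner software's mark for signal well above background in all 4 measurements, and none was saturated. GINS2 and PRIM1 had a single probe each, printed as 10 spots of which at least 1 was marked as an outlier, and they were left out of the comparisons. The other 45 genes had 58 measured probes, and a gene was represented by its brightest one. Over the whole series 13808 of the 19736 genes with a probe were measured, so a signal above background is common and says little about cell type. Of the markers of epithelial cells, all 9 listed were above background. KRT5 was bright, with 0.84% of the measured genes brighter, but TP63 was dim, with 74.7% brighter. Fibroblast markers were above background for 3 of 5 genes, endothelial ones for 1 of 3 and white blood cell ones for 2 of 3. The fibroblast gene DCN (56.9% brighter) and the white blood cell gene CD14 (58.2%) were brighter than TP63. The RNA came from 1 cell line, and the source of these marker signals was not tested.

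Transfection with pre-miR-424 left the replication genes close to the control level. The median log2 ratio of pre-miR-424 over control of the 45 measured genes was 0.053 (0.011 on the array with normal labelling and 0.058 on the swap), and that of all measured genes was −0.0040. The mean ratios of the 2 arrays ranged from −0.24 for RRM1 to 0.30 for CDT1, which is 1.23-fold. A log2 ratio of 1 in the same direction on both arrays (2-fold) was reached by 0 of the 45 genes, against 0.101% of all measured genes. At 1.5-fold on both arrays the count was again 0, against 1.01% of all measured genes. With shares this small, a count of 0 among 45 genes does not set them apart from other genes.

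A finer limit came from the arrays themselves. The error of a mean ratio was taken as the SD, over all measured genes, of the difference between the arrays divided by 2, which was 0.16, and a gene counted as beyond the array error when its mean exceeded 2 times this value, a log2 ratio of 0.32 or 1.25-fold. None of the 45 genes passed this limit, against 8.61% of all measured genes (4.24% higher and 4.37% lower with pre-miR-424). Among the 2401 genes in the middle range of brightness of the replication genes (between their quartiles), 8.66% passed it. The SD of the mean ratios over the replication genes was 0.12, close to their own array error of 0.12, whereas the SD was 0.20 both over all measured genes and over the genes of like brightness. With the smaller error of those genes of like brightness, 0.14, which was computed after the data were seen, the limit became 0.28 and CDT1 alone passed it, against 12.1% of these genes.

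Directions were mixed. Ratios were above 0 on both arrays for 17 genes (37.8%), against 26.8% of all measured genes, and below 0 on both for 11 (24.4%), against 26.7%. Together 62.2% had the same sign on both arrays, against 53.5% of all measured genes, and in the remaining 17 genes the arrays disagreed in sign. With median centring of the arrays instead of loess, the split became 2 genes higher and 6 lower. In 24 of the 45 genes (53.3%) the mean ratio was smaller in size than the SD of the 2 arrays, as it was in 56.2% of all measured genes. Both arrays held the same RNAs. Their ratios had a Pearson correlation of 0.074 across the 45 genes and of 0.21 across all measured genes. Across the genes of like brightness the correlation was 0.36.

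**Figure D1:**
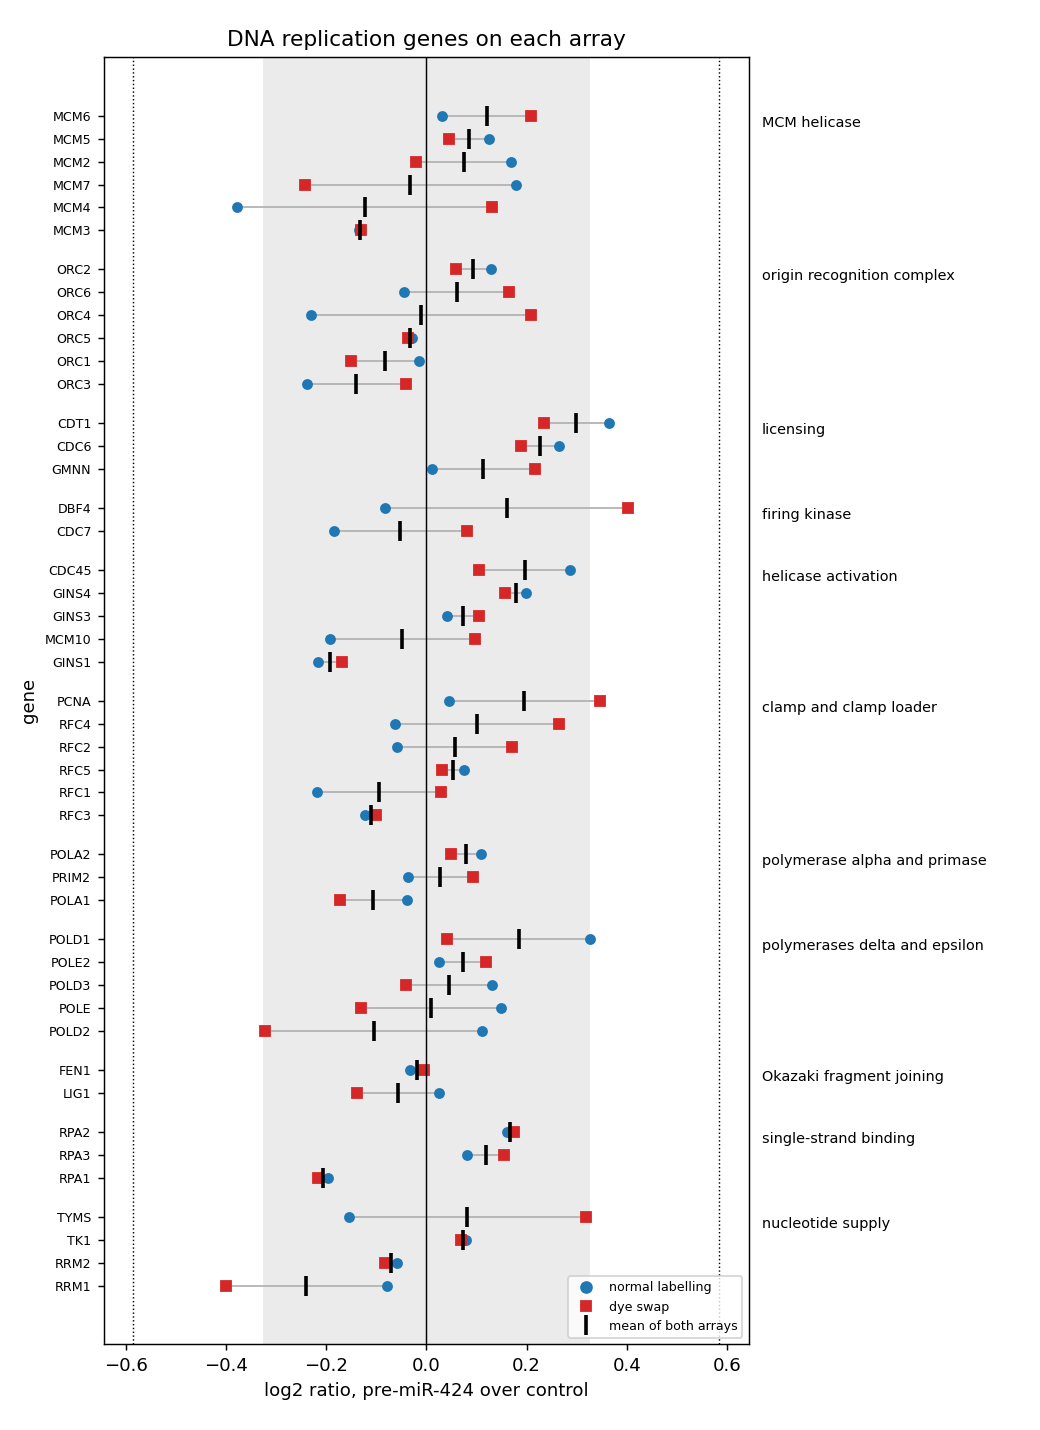
Log2 ratio of pre-miR-424 over control (x axis) for the 45 measured DNA replication genes (y axis), grouped by complex, with circles for normal labelling, squares for the dye swap and bars for their mean. The grey band covers 2 times the array error (0.32 on either side of 0) and the dotted lines mark 1.5-fold; all 45 means lie within the band, from −0.24 for RRM1 to 0.30 for CDT1.

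The licensing factors CDT1 and CDC6 had the highest mean ratios of the 45 genes, both within the array error. CDT1 (NM_030928), which helps to load the MCM ring and is destroyed once S phase begins, had normalised log2 signals of 12.57 and 12.33 with pre-miR-424 on the normal array and the swap, and of 12.20 and 12.09 in control cells. Both signals with pre-miR-424 therefore lay above their control on the same array, with log2 ratios of 0.36 and 0.23 (mean 0.30 ± 0.092, SD of the 2 arrays). CDC6 (NM_001254), the ATPase that works with CDT1, had signals of 7.55 and 7.59 against 7.29 and 7.40, and ratios of 0.26 and 0.19 (mean 0.23 ± 0.053). Its probe was dim, with 88.3% of the measured genes brighter, and the background offset draws ratios of such probes towards 0. By the scanner software's own log ratios its mean was 0.39 and beyond the array error of that setting, as were 11.2% of all measured genes. The mean of CDC6 was 0.28 with a smaller offset of 16 and 0.23 without background correction. The cause of these differences was not tested. Geminin (NM_015895), the inhibitor of CDT1, had ratios of 0.01 and 0.22. The median of the 3 licensing genes was 0.23, and all 3 were above 0 on both arrays, as were 26.8% of all measured genes. With median centring only CDC6 was (0.28 and 0.16), since CDT1 then gave 0.55 and −0.06, and GMNN 0.31 and −0.20.

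In the MCM helicase the median was 0.021, with 2 genes above 0 on both arrays, 1 below 0 and 3 with opposite signs. MCM3 (NM_002388) had the most closely repeated value, with log2 ratios of −0.13 on both arrays (SD 0.0018). MCM6 (NM_005915) gave 0.03 and 0.21. MCM5 (NM_006739) gave 0.12 and 0.04 by its brightest probe and 0.34 and −0.07 by its other probe. The arrays disagreed most for MCM4 (NM_005914), with signals of 13.75 and 13.92 with pre-miR-424 against 14.12 and 13.79 in control cells, and ratios of −0.38 and 0.13. Its SD of 0.36 was the largest of the 45 genes, and its direction is not defined by these arrays. MCM2 (NM_004526) gave 0.17 and −0.02. MCM7 (NM_182776) gave 0.18 and −0.24 by its brightest probe and 0.37 and 0.04 by its other probe. Each subunit occurs once in the hexamer, and none of the 6 had a mean beyond the array error.

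The origin recognition complex, the platform on which licensing begins, had a median of −0.021. ORC3 (NM_181837) had ratios of −0.24 and −0.04, and ORC1 (NM_004153) −0.02 and −0.15. ORC2 (NM_006190) gave 0.13 and 0.06 by its brightest probe and −0.03 and 0.21 by the other. ORC5 gave −0.03 and −0.04 by its brightest probe and −0.18 and 0.22 by the other. Both probes of ORC4 disagreed between the arrays, with −0.23 and 0.21 by the brighter and −0.11 and 0.13 by the dimmer one. ORC6 was measured by a probe printed as 10 spots, which gave a mean of −0.045 with an SD of 0.068 between spots on the normal array and of 0.17 with an SD of 0.061 on the swap. The difference between the arrays was thus larger than the scatter of the spots within each.

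Origin firing depends on CDC7 and its activator DBF4, and then on CDC45 and GINS, which turn the loaded MCM ring into an active helicase. DBF4 (NM_006716) gave −0.08 and 0.40 by its brightest probe and −0.17 and 0.06 by a dim one, and CDC7 (NM_003503) gave −0.18 and 0.08, so that the arrays disagreed for both parts of the kinase. CDC45 (NM_003504) had signals of 12.96 and 12.95 with pre-miR-424 and of 12.67 and 12.84 in control cells, with ratios of 0.29 and 0.11 (mean 0.20 ± 0.13). GINS1 and GINS4, subunits of the same tetramer, had opposite signs. GINS1 (NM_021067) gave −0.22 and −0.17 (mean −0.19 ± 0.034), while GINS4 (NM_032336) gave 0.20 and 0.16 (mean 0.18 ± 0.030). Both differences were larger than their SD between the arrays but smaller than the array error limit. GINS3 (NM_022770) gave 0.04 and 0.10. GINS2, left out for outlier spots, gave 0.20 and 0.12 when these spots were kept, and MCM10 (NM_182751), which also helps to activate the helicase, gave −0.19 and 0.10.

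PCNA (NM_002592), the sliding clamp and a common marker of proliferation, had signals of 15.29 and 15.56 with pre-miR-424 and of 15.25 and 15.21 in control cells, with ratios of 0.045 and 0.35 (mean 0.20 ± 0.21). A second probe, printed as 10 spots, gave −0.0024 on the normal array (SD between spots 0.045) and 0.45 on the swap (SD 0.063). Both probes of PCNA therefore put the higher ratio on the swap alone, and the difference between the arrays exceeded the scatter of the spots. The subunits of the clamp loader, which opens PCNA around DNA, had ratios of −0.12 and −0.10 for RFC3 (NM_002915), repeated by a second probe with −0.07 and −0.12, and of 0.08 and 0.03 for RFC5 (NM_181578). RFC1, RFC2 and RFC4 had opposite signs on the arrays, each with the higher ratio on the swap.

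**Figure D2:**
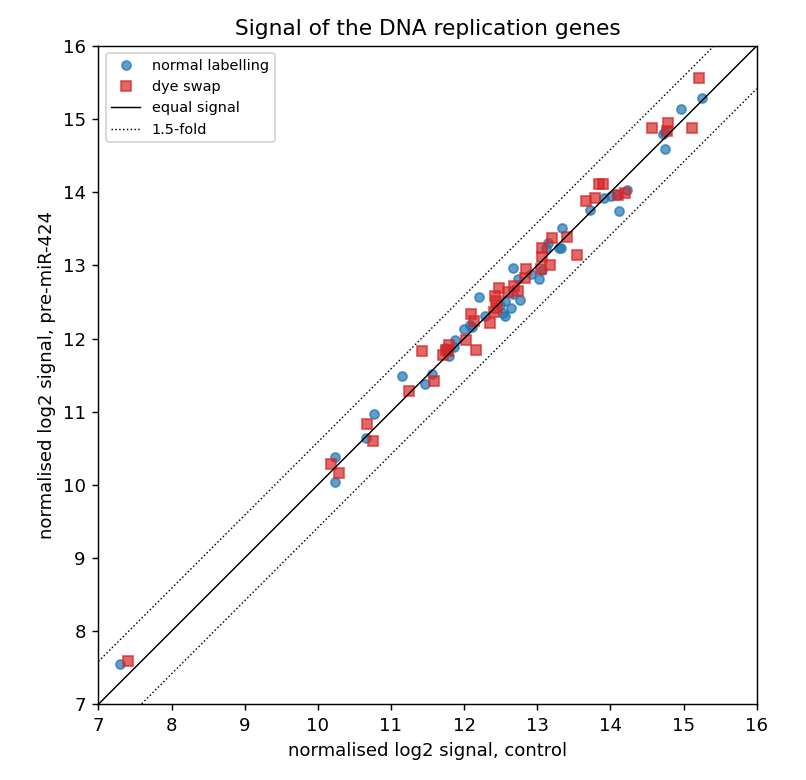
Normalised log2 signal of the 45 measured DNA replication genes in cells with pre-miR-424 (y axis) against control cells (x axis), with circles for the array with normal labelling and squares for the dye swap. The solid line marks equal signal and the dotted lines 1.5-fold; every point lies between the dotted lines, CDC6 (7.29 to 7.59) as well as PCNA (15.21 to 15.56).

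Among the polymerases, POLA1 (NM_016937), the catalytic subunit of polymerase alpha, gave −0.04 and −0.17, and its partner POLA2 (NM_002689) gave 0.11 and 0.05. PRIM2, the large primase subunit, had 3 measured probes, which gave −0.04 and 0.09, −0.28 and 0.40, and −0.26 and 0.15. All 3 were below 0 on the normal array and above 0 on the swap. PRIM1, left out for outlier spots, gave 0.039 and −0.013 when they were kept. POLD1 (NM_002691), the catalytic subunit of polymerase delta, had ratios of 0.33 and 0.042 (mean 0.18 ± 0.20), whereas its partner POLD2 (NM_006230) gave 0.11 and −0.32. POLD3 gave 0.13 and −0.04. POLE (NM_006231), the catalytic subunit of polymerase epsilon, gave 0.15 and −0.13 by the brighter and −0.14 and 0.02 by the dimmer probe, and POLE2 gave 0.03 and 0.12. The median of the polymerase delta and epsilon genes was 0.044.

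FEN1 (NM_004111), the flap nuclease, had ratios of −0.03 and −0.0057, and LIG1 (NM_000234), the ligase that seals Okazaki fragments, gave 0.03 and −0.14. The RPA trimer repeated closely on the arrays, but its subunits differed in sign. RPA1 (NM_002945), the large subunit, had signals of 14.04 and 13.99 with pre-miR-424 and of 14.23 and 14.20 in control cells, with ratios of −0.20 and −0.22 (mean −0.21 ± 0.014). A second and dim RPA1 probe gave 0.06 and 0.08, so the negative ratio rests on 1 probe. RPA2 (NM_002946) gave 0.16 and 0.18 by one probe and 0.25 and 0.19 by the other, and RPA3 (NM_002947) gave 0.08 and 0.16.

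The genes of nucleotide supply had a median of 0.0017. RRM1 (NM_001033), the large subunit of ribonucleotide reductase, had the lowest mean ratio of the 45 genes, with signals of 13.24 and 13.14 with pre-miR-424 and of 13.32 and 13.54 in control cells. Its ratios were −0.08 and −0.40 (mean −0.24 ± 0.23), so that most of the difference came from the swap. RRM2 (NM_001034), the subunit that is made in S phase, gave −0.06 and −0.08, and thymidine kinase TK1 (NM_003258) gave 0.08 and 0.07. For thymidylate synthase, TYMS (NM_001071), the arrays disagreed, with −0.15 and 0.32.

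**Figure D3:**
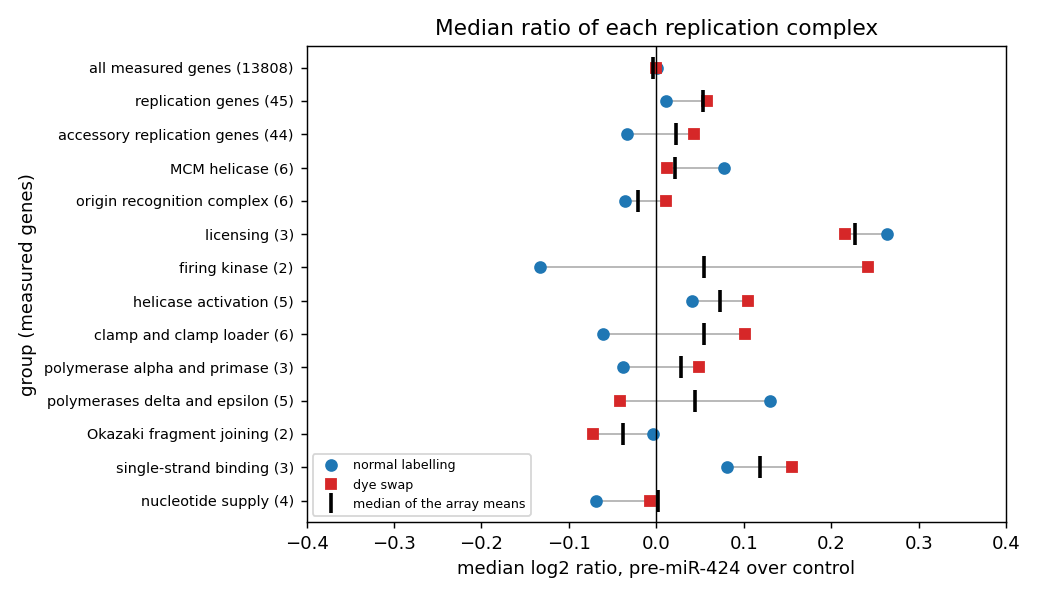
Median log2 ratio of pre-miR-424 over control (x axis) for all measured genes, for the replication genes, for the accessory replication genes and for each complex (y axis, with the number of measured genes), with circles for normal labelling, squares for the dye swap and bars for the median of the array means. The licensing genes have the highest median of array means (0.23), and the medians of 5 complexes lie on opposite sides of 0 on the arrays.

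Other genes of replication were taken as a list of 47 accessory genes, for origin firing, fork protection, nucleotide supply, CDT1 turnover and chromatin assembly behind the fork. Of these, 44 were measured, with a median log2 ratio of 0.022. On both arrays 11 were above 0 (25%), against 26.8% of all measured genes, and 13 were below 0 (29.5%), against 26.7%. Beyond the array error lay 1 gene higher and 2 lower, against the 4.24% and 4.37% of all measured genes given above. SAMHD1, which breaks down deoxynucleotides and is also known as an interferon-induced gene, had ratios of 0.20 and 0.99 (mean 0.60 ± 0.56) by its brightest probe. Its other probe gave 0.22 and 0.19, with a mean of 0.20 that lay within the limit. SSRP1, a subunit of the histone chaperone FACT, gave −0.21 and −0.54 (mean −0.37 ± 0.23), and DDB1, an adaptor of the ubiquitin ligase that destroys CDT1, gave −0.24 and −0.43 (mean −0.34 ± 0.14). No accessory gene reached 1.5-fold on both arrays, against 1.01% of all measured genes, and for SAMHD1 the value rested on 1 probe on the swap.

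Cell cycle genes that act before replication are given as a scale. They were chosen with earlier results of these data known, so their values are a description. Cyclin E1 (CCNE1), which activates CDK2 for origin firing, had ratios of −0.62 and −0.92 (mean −0.77 ± 0.21), and CDC25A, the phosphatase that activates the cyclin kinases, gave −0.52 and −0.53. CCND3 gave −0.67 and −0.54, and CDK6 gave −0.58 and −0.45. Each of these 4 means was beyond the array error. Against them, the checkpoint genes CHEK1 (mean −0.30) and WEE1 (mean −0.15) and the transcription factors E2F1 (0.14 and −0.29) and E2F3 (−0.01 on both arrays) were within it. No replication gene passed the limit by its brightest probe, so each mean was bound to lie nearer to 0 than those of the 4 genes. This comparison therefore adds nothing to the counts given above. Whether the replication genes differ from these genes was not tested.

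**Figure D4:**
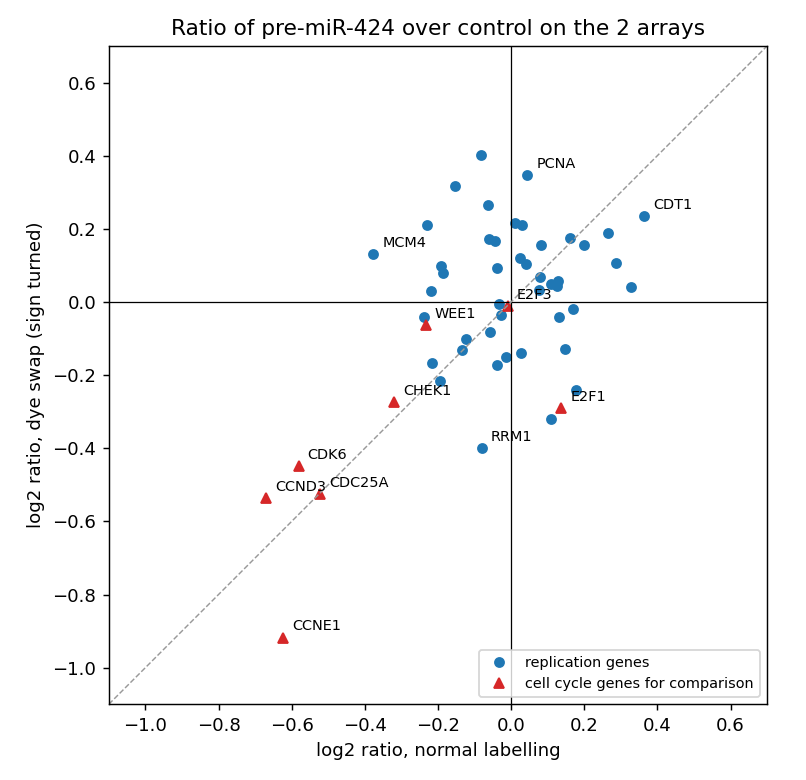
Log2 ratio of pre-miR-424 over control on the array with normal labelling (x axis) against the dye swap with its sign turned (y axis), for the 45 replication genes (circles) and 8 cell cycle genes given for comparison (triangles); the dashed line marks equal ratios. The comparison genes were chosen with earlier results of these data known. CCNE1, CCND3, CDK6 and CDC25A lie at the lower left, below 0 on both arrays, while the replication genes form a cloud around 0.

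The promoters of the genes were searched because E2F factors are known to act there. Of the 47 genes, 41 had a promoter in the RefSeq table (build GRCh38.p14), and 10 of them had several start sites. Motifs were searched in the 250 bases before each start, on both strands. The 4 spellings of the E2F motif were TTTGGCGC, TTTCGCGC, TTTCCCGC and TTTGCCGC, which can overlap each other, and at least 1 was found for 15 of the 41 genes (36.6%), against 5.38% of the measured genes and 3.40% of all genes of the table. The CCAAT motif of NF-Y was found for 24 genes (58.5%), against 41.4% of the measured genes. The stretch of 120 bases before the start is shown, with E2F motifs in capitals, for the genes with the highest and the lowest ratio and for MCM6, whose 250 bases held the most E2F motifs (4):
CDT1, chr16:88803669-88803788, plus strand: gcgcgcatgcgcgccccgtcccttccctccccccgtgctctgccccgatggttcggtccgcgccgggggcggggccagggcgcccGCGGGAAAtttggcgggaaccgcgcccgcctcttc
RRM1, chr11:4094565-4094684, plus strand: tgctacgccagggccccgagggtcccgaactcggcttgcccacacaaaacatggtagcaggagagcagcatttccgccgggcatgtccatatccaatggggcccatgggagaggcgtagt
MCM6, chr2:135876444-135876563, minus strand: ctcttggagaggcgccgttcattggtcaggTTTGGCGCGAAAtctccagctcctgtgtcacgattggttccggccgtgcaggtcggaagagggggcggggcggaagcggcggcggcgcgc
In CDT1 the motif is read on the opposite strand, in RRM1 none of these spellings lies in the window, and in MCM6 the capitals hold overlapping motifs, one on each strand. The 14 measured genes with 1 of the 4 spellings had a median log2 ratio of −0.011, ranging from −0.14 to 0.30. The 25 without any of them had a median of 0.053, ranging from −0.24 to 0.23. Other spellings were not searched, and the similar tttggcggg lies in the windows of CDC6 and CDC45, both counted as without a motif. The group without the motif can therefore hold genes with E2F sites. The order of the medians turned between the arrays, with 0.018 with the motif against −0.034 without it on the normal array, and 0.0039 against 0.058 on the swap. The ranges overlapped over most of their length, and the ratios of the arrays did not separate the genes by these 4 spellings. Whether they differ by E2F sites in general was not tested.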

How the data were processed

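The members and gene lists were chosen with earlier results of these data known. The scanner files deposited by the authors (Feature Extraction 10.7.3.1, array design on hg19) give the median intensity of each spot and its background per channel, not normalized, and flags for outlier spots. The same deposited files hold the log10 ratio of Cy5 over Cy3 from the scanner software. A table of log2 ratios was also deposited; limma is named in the submitters' processing notes, but its steps are not given in the sources used here. Its columns, turned on the swap as here, correlated with the ratios below by 0.991 and 0.988 over 42405 probes.

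From the median intensities, background was corrected by normexp with an offset of 50 in limma 3.58.1 (R 4.3.3). Control spots were then removed and loess was run within each array. The offset draws ratios of dim probes towards 0. Repeated spots were averaged per probe, and the sign of the swap was turned. Aquantile scaling was used for signals only. A probe counted as measured if all its channels were marked well above background and no spot was an outlier. RefSeq accessions (25767 of 27134 matched, 95.0%) gave gene symbols, which grouped the probes into genes and linked genes to promoters. Named in full were the 12 genes with the largest mean of equal sign on both arrays, those beyond a limit, and those whose probes differed in sign. No test fits 1 replicate. Median local backgrounds lay between 28 and 70 and median signals between 165 and 314, and the number of arrays limits the precision. The scripts were tested on simulated data. Alternatives in normalization, filter and probe choice, and each array alone, were tried. Python 3.11.15 with pandas 2.3.3 was used. A list of luminal prostate markers is not reported here.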

Additional observations from a re-analysis of the deposited data

How the results depend on the processing

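Each of the 12 named genes kept the sign of its mean under the 11 alternatives run for it. These genes were chosen for a large mean of equal sign on both arrays, so each array alone could not change the sign. Their stability therefore does not extend to the other replication genes. The scanner software's log ratios put 1 gene (CDC6) beyond the array error in place of 0, against 11.2% of all measured genes. The absence of a filter on dim probes put 1 there (CDT1, as the limit became 0.30), against 7.58% of all genes then kept. The error of genes of like brightness also put 1 there (CDT1), against 12.1% of those genes. Median centring moved the median of all genes to 0.13 and −0.23 on the arrays. It gave 2 genes higher and 6 lower, a median of −0.0035 for the replication genes, which is 0.041 above that of all genes, and one of −0.040 for the accessory genes. With each array alone, the median ranged from 0.011 to 0.058 for the replication genes and from −0.034 to 0.043 for the accessory genes, and 23 to 28 replication genes were higher and 17 to 22 lower, since no repeat was required. The shares of all measured genes higher or lower in these settings are not given here. The cause of the other differences was not tested. No replication gene reached 1.5-fold on both arrays under any alternative run, nor on a single array with the loess ratios. On both arrays in the main setting, only 1.01% of all measured genes reached it. Of 121 complex medians under alternatives, 14 changed sign. Signal over background limits CDC6 and the dim second probes. No paired analysis was possible because the arrays hold the same pair of RNAs and each ratio is already taken within an array.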
